A study of Mus musculus with 12 samples.

Results

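The 3 arrays described here measured RNA from mouse bone marrow cultures that had received the empty retroviral vector MIG, and they are 3 of the 12 arrays of the study. They were chosen by their title alone, and no measured value entered the choice. MIG carries GFP and no added gene, and the submitters used it as the baseline for 3 fusion constructs, which supply the other 9 arrays: CALM-AF10, CALM-AF10 ΔOM-LZ and CALM(400-648)+AF10 (677-758), the last called the minimal fusion here. CALM-AF10 is a leukaemia fusion gene, and its short forms were built to find which pieces of it are active in marrow cells.

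All 12 cultures share the same history. Adult mice of the strain C57/BL6/C3H received 5-fluorouracil, which kills dividing cells and leaves marrow richer in stem and progenitor cells, and marrow was taken 4 days later. After 48 hours of stimulation with cytokines, which the labels do not name, the cells were laid over irradiated (40 Gy) GFP+E86 producer cells that released the virus, with protamine sulfate at 5 µg/ml. They then grew for another 48 hours in cytokines, and GFP-positive cells were sorted. RNA is dated 96 hours after transduction in the sample descriptions, and each array is labelled as a separate biological replicate. The MIG arrays therefore show cells that had been through 5-fluorouracil, retroviral infection, contact with a producer line, cytokine culture and a GFP sort, not resting marrow, and the labels do not say whether animals were pooled for a culture.

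Marrow progenitors grown in cytokines divide and mature along several paths at once. Stem and progenitor cells carry surface proteins such as Kit and Cd34 and transcription factors such as Gata2, Meis1 and Myb. Neutrophil precursors first fill their primary granules with myeloperoxidase and serine proteases and later make a second set of granule proteins, while monocytes, megakaryocytes, mast cells and red cell precursors each have gene sets of their own.

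The values are log2 brightnesses of probe sets, which are groups of probes that read the same transcript. For each of 19938 genes the brightest probe set with a single symbol, by its mean over the MIG arrays, stands for the gene. Brightness depends on the probes as well as on the RNA, so genes are placed in bands and not ranked as amounts. A gene is called near the floor where its MIG mean is at or below 6.06, the 95th percentile of 1027 olfactory receptor genes, a family that marrow is not known to use. It is called high where its mean is in the top 10% of genes, at 10.20 or above, and middling in between. By these rules 7322 genes (36.7%) were near the floor, 10622 were middling and 1994 (10%) were high. A gene is said to vary where its highest and lowest MIG values differ by 1 or more on the log2 scale, which is 2-fold. This held for 1000 genes, or 5.02%, against which the counts of each gene list below should be read. Counts of the highest and lowest culture should likewise be read against all 19938 genes. Cultures 1, 2 and 3 held the highest value of 6355, 8817 and 4766 of these and the lowest value of 5847, 4958 and 9133. Just above the floor a band says little: of 26 genes of other tissues, such as Apoa1 of the liver (6.77, 7.04 and 6.98 in MIG cultures 1, 2 and 3), 9 were middling, 17 were near the floor and none was high. The brightest of them was Trdn of striated muscle, at 7.003, 7.57 and 7.01. This is the brightest of its many probe sets, and the dimmest had a MIG mean of 3.24.

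Over the 23410 probe sets with a symbol, the 3 MIG arrays had Pearson correlations with each other of 0.982 to 0.987. Their correlations with the 9 fusion arrays ran between 0.970 and 0.994. By this measure the MIG arrays were not a group closer to each other than to the rest. The highest value was that of MIG culture 1 with CALM-AF10 replicate 2. The median gene had a range of 0.29 log2 over the 3 cultures. The 20 brightest genes hardly moved, with ranges of 0.03 to 0.30. They included 9 ribosomal protein genes, among them Rpl10 (13.52, 13.57 and 13.59) and Rps2 (13.28, 13.29 and 13.26), the translation factor Eef1a1 (13.76, 13.79 and 13.86), Actb of the cytoskeleton (13.52, 13.56 and 13.49) and Srgn, the proteoglycan of blood cell granules (13.32, 13.32 and 13.47).

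**Figure D1:**
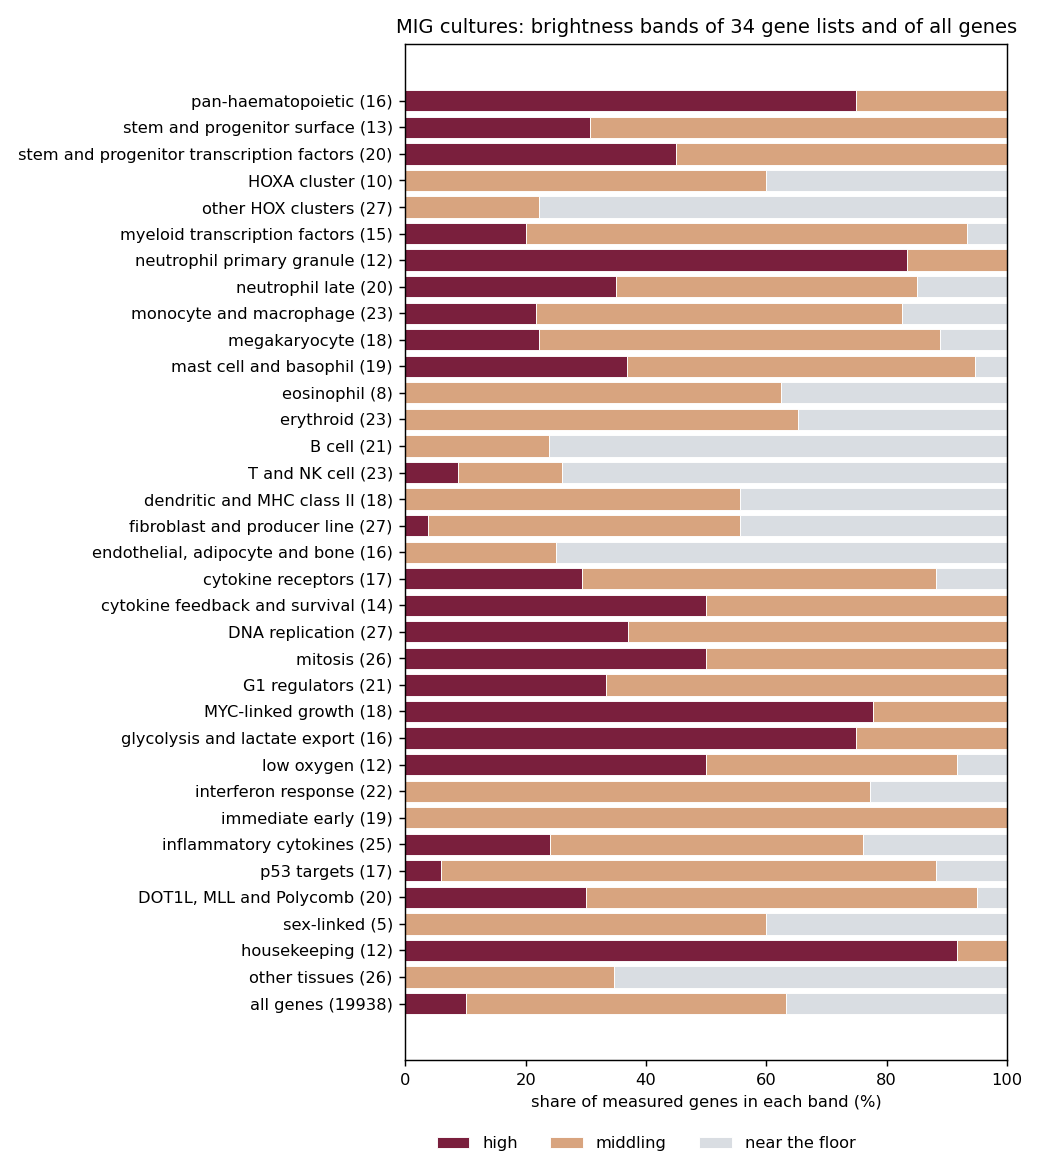
Share of the measured genes of each of 34 gene lists that were high, middling or near the floor in the mean of the 3 MIG cultures, in percent, with the number of measured genes in brackets and all 19938 genes in the bottom row. Lists of blood cell identity, primary granules, MYC-linked growth and glycolysis are mostly high, and those of B cells, vessel and bone cells and other tissues are mostly near the floor.

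The arrays carried the genes of blood cells in general. Of 16 genes that blood cells of all kinds share, 12 were high, 4 were middling and none was near the floor or varied. Ptprc, the CD45 phosphatase that marks blood cells, stood at 10.45, 10.92 and 10.83. Arhgdib stood at 12.74, 12.85 and 12.64, and Laptm5, a lysosomal membrane protein of leukocytes, at 12.43, 12.58 and 12.67. The lowest of the list were Cd48 (9.59, 9.16 and 9.39) and the adhesion receptor Cd44 (9.12, 9.25 and 8.87). The largest ranges were small, 0.63 for the integrin chain Itgb2 (10.53, 11.16 and 10.94) and 0.61 for the tetraspanin Cd53 (12.03, 12.47 and 12.64). The defining markers of blood cells were thus bright in each array.

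Progenitor genes were all above the floor, and fewer than those of blood cells in general were high. Among 13 surface genes of stem and progenitor cells 4 were high and 9 middling, and among 20 transcription factors 9 were high and 11 middling, with none of either list near the floor. Cd34 stood at 11.93, 11.73 and 12.43, Adgrg1, an adhesion receptor of stem cells, at 12.32, 12.43 and 12.67, and Cd93 at 11.28, 11.86 and 11.44. Kit, the receptor for stem cell factor, was at 9.91, 10.10 and 11.21, so culture 3 was higher than the other two by over 1 log2. Flt3, a receptor of early lymphoid and myeloid progenitors, was only middling at 6.90, 7.17 and 6.91. The lowest surface genes were Fgd5 (6.49, 6.70 and 6.58) and Esam (5.73, 6.40 and 6.45), both markers of stem cells, within the range of the genes of other tissues.

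Of the transcription factors, Myb stood at 11.72, 11.53 and 11.65 and Runx1 at 11.39, 11.28 and 11.49, with little spread. Gata2, needed for stem cells and for mast cells, was at 11.01, 11.28 and 12.32, and Meis1, a homeobox partner of HOX proteins, at 10.03, 10.13 and 11.03. Nkx2-3 (7.05, 6.66 and 6.87) and Prdm16 (6.52, 6.48 and 6.57) were the lowest. The 2 lists held 5 and 6 varying genes. In culture 3 lay the highest value of 7 of the 13 surface genes and of 12 of the 20 factors, with Tek, the angiopoietin receptor, at 8.67 in culture 3 and 6.50 and 6.45 in cultures 1 and 2. The pattern was alike for Ctla2a (6.89, 7.02 and 8.67), Slamf1 (6.95, 7.71 and 8.72), Mecom (6.67, 6.68 and 7.86) and Mycn (8.49, 8.23 and 9.32). Prom1, a stem cell surface protein, also varied but was lowest in culture 3, with 7.61, 8.34 and 6.66. For Mecom this is the brighter of its probe sets, and the other was near the floor.

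HOX genes set the body plan in embryos, and some genes of the HOXA cluster are used by blood progenitors. Here 6 of 10 measured HOXA genes were middling, 4 were near the floor and none varied. Hoxa9 stood at 8.74, 8.44 and 8.81, Hoxa7 at 8.38, 8.38 and 8.26 and Hoxa4 at 7.51, 7.57 and 7.27. Hoxa13 (5.31, 5.15 and 5.23) and Hoxa11 (4.53, 4.72 and 4.40) were the lowest. Hoxa10 had the largest range, 0.50, with 6.62, 6.85 and 7.12. Of 27 genes of the other HOX clusters 6 were middling and 21 near the floor, again with none varying. The brightest were Hoxb3 (7.70, 7.78 and 7.88), Hoxb4 (7.48, 7.45 and 7.32) and Hoxb2 (7.23, 7.07 and 7.31), and the dimmest were Hoxc4 (4.36, 4.59 and 4.45) and Hoxd8 (4.31, 4.35 and 4.38).

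**Figure D2:**
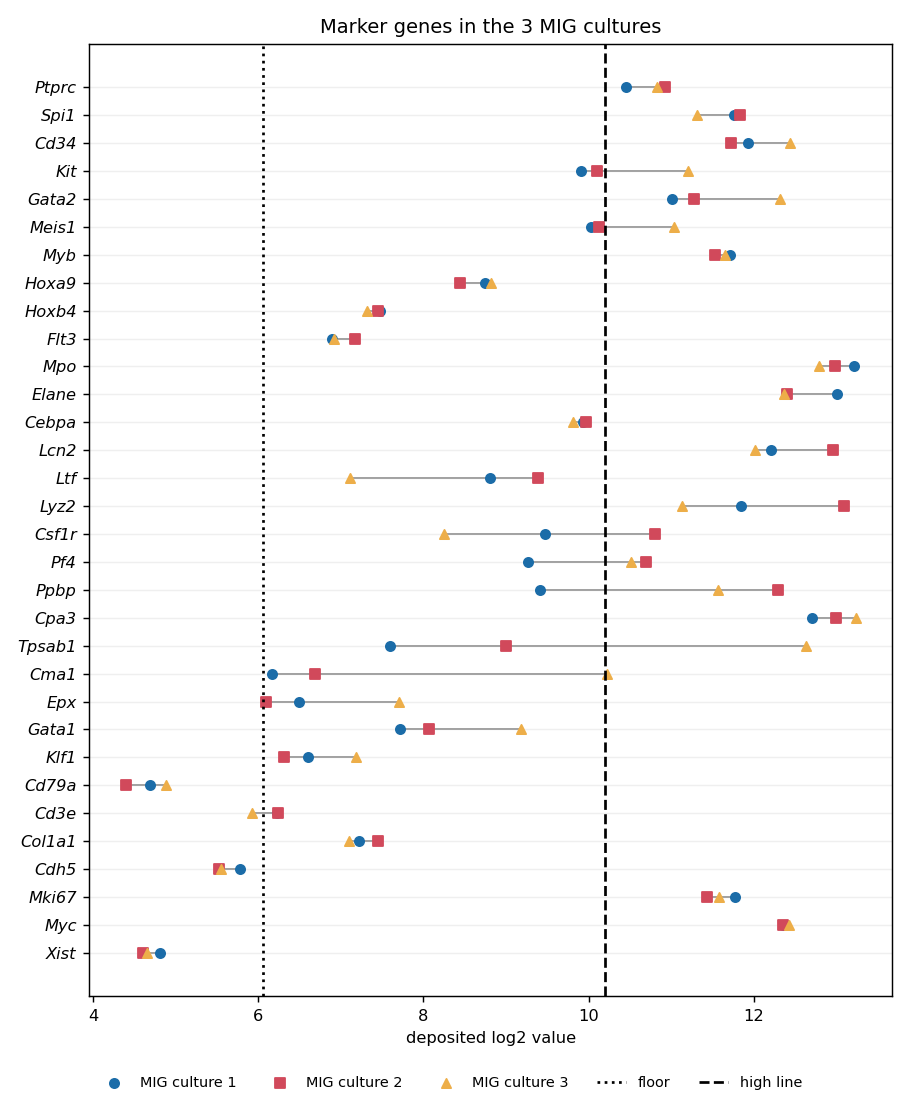
Deposited log2 values of 32 marker genes in each MIG culture, with the floor of 6.06 and the line for high genes at 10.20. Myc, Myb and Ptprc lie close together in the 3 cultures, while Tpsab1, Cma1, Ppbp, Csf1r and Ltf spread widely.

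Genes of the neutrophil's primary granule were mostly in the high band. Of 12 measured, 10 were high and 2 middling. Mpo, myeloperoxidase, stood at 13.22, 12.98 and 12.79, Elane, neutrophil elastase, at 13.01, 12.40 and 12.36 and Ctsg, cathepsin G, at 12.68, 12.59 and 12.26. Culture 1 held the highest value of 9 of the 12 genes. The spread was widest for Ms4a3 (11.87, 10.97 and 10.24), the granule protease Prss57 (9.64, 8.32 and 8.09) and Prtn3, proteinase 3 (12.49, 11.52 and 10.97), each highest in culture 1 and lowest in culture 3. Fcnb, a ficolin, was the lowest of the list at 8.66, 8.61 and 7.23.

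Among 15 myeloid transcription factors 3 were high, 11 middling and 1 near the floor. Spi1, which codes for PU.1, stood at 11.76, 11.83 and 11.32, Nfe2 at 10.88, 10.94 and 10.87, and Cebpa, the factor that opens the granulocyte path, at 9.93, 9.97 and 9.81. Id2, an inhibitor of helix-loop-helix factors, spread most, with 10.59, 11.23 and 12.38. Irf4 (6.46, 7.94 and 6.22) and Klf4 (6.89, 8.06 and 6.59), which act in monocyte and macrophage development, were each highest in culture 2. Id3 was near the floor at 6.13, 5.76 and 5.91, and Egr2 was the next lowest at 6.47, 6.80 and 6.995.

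Late neutrophil genes, made after the primary granules, were spread over the bands, with 7 of 20 high, 10 middling and 3 near the floor. Lcn2, an iron-binding protein of secondary granules, stood at 12.21, 12.96 and 12.01, Ngp at 11.90, 12.14 and 11.25 and Pglyrp1 at 11.37, 11.22 and 11.01. The lowest were Mmp25 (5.44, 5.68 and 5.37) and Retnlg (5.22, 5.67 and 5.54), and the chemokine receptor Cxcr2, of mature neutrophils, was middling at 9.13, 8.76 and 8.91. Of the 20 genes 11 varied. Culture 2 was highest for 17 of them and culture 3 lowest for 14. Cybb, the oxidase subunit of phagocytes, reached 12.02 in culture 2, with 10.65 in culture 1 and 8.78 in culture 3, a 9.47-fold range. Mmp8, a collagenase, was at 10.43, 12.01 and 9.37, and Ifitm6 at 8.71, 10.04 and 7.62. Ltf, lactoferrin, was at 8.81, 9.38 and 7.12.

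Monocyte and macrophage genes showed the same order of cultures with a wider spread. Of 23 measured, 5 were high, 14 middling and 4 near the floor, and 16 varied. Culture 2 held the highest value of 22 of them, and culture 3 the lowest of 16. Lyz2, lysozyme, stood at 11.84, 13.09 and 11.13, Sirpa at 10.75, 11.44 and 10.15 and F13a1, a coagulation factor subunit of monocytes, at 10.64, 11.51 and 9.26. Csf1r, the receptor for macrophage colony-stimulating factor, was at 9.48, 10.80 and 8.25. The largest ranges were those of Gpnmb, a glycoprotein of macrophages (6.60, 10.47 and 7.19), Ms4a6c (8.49, 9.86 and 6.62) and Mpeg1, the macrophage perforin (7.60, 9.58 and 6.43). Complement C1qa (5.65, 5.72 and 5.40) and Ly86 (4.74, 5.25 and 5.00) were near the floor. On average over the list, culture 2 lay 0.97 log2 above the mean of the 3 cultures, culture 1 lay at -0.23 and culture 3 at -0.73. The same average over the 26 genes of other tissues was 0.12 in culture 2, which held the highest value of 19 of them, and over all genes it was 0.03. In a sorted culture read in bulk, fewer cells of a type and less RNA per cell cannot be told apart, and this holds for each list here.

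Megakaryocyte genes were lowest in culture 1. Of 18 measured, 4 were high, 12 middling and 2 near the floor, and 10 varied, with 17 of the 18 lowest in culture 1. Thbs1, thrombospondin, stood at 12.52, 13.23 and 12.67 and Plek, pleckstrin, at 10.89, 11.61 and 11.76. Ppbp, a platelet chemokine, had 9.41 in culture 1 and 12.30 and 11.57 in cultures 2 and 3. Pf4, platelet factor 4, had 9.27, 10.69 and 10.52 in the same order. Itga2b, the integrin chain that defines the lineage, was at 9.24, 9.78 and 11.03, and Rab27b, a GTPase of platelet granule release, at 8.57, 9.26 and 10.64, both highest in culture 3. Mmrn1, multimerin, was at 5.97, 7.49 and 7.77, against 5.14 to 6.59 in the 9 arrays of the fusion constructs. Alox12 (5.18, 6.21 and 5.39) and Clec1b (4.64, 5.91 and 4.92) were near the floor in the mean.

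Mast cell and basophil genes held the largest ranges of the lineage lists. Mast cells store proteases, heparin and histamine in granules and bind IgE through a receptor with the chains Fcer1a and Ms4a2, and mouse basophils make the protease Mcpt8. Of 19 measured genes 7 were high, 11 middling and 1 near the floor, and 12 varied. Each of the 19 had its highest value in culture 3, and 15 had their lowest in culture 1. Gata2 counts in this list as well as among the progenitor transcription factors. Cpa3, carboxypeptidase A of mast cell granules, was bright throughout, between 12.70 in culture 1 and 13.24 in culture 3, with a mean of 12.98 ± 0.27 (SD, n = 3). So were Mcpt8 (11.69, 11.69 and 12.25) and Cyp11a1, a steroid-producing enzyme also found in mast cells (11.63, 11.35 and 12.20).

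The proteases of mature mast cells separated culture 3 from the others. Tpsab1, a tryptase, stood at 7.59, 8.997 and 12.63, a 32.8-fold range and the largest of all genes in these arrays. Mcpt4, a chymase, was near the floor in cultures 1 and 2 (4.94 and 5.44) and reached 9.71 in culture 3. Cma1, mast cell chymase, had 6.16, 6.69 and 10.23, and Tpsb2, a second tryptase, 7.75, 8.97 and 11.85. Fcer1a was at 10.57, 10.81 and 12.75 and Ms4a2 at 9.19, 9.34 and 11.55, while Cd200r3, a receptor of mast cells and basophils, was at 7.95, 8.76 and 10.34. Mcpt1 stayed near the floor at 4.55, 4.53 and 4.92. The tryptases resemble each other closely in sequence, as do the mast cell chymases, so the share of each gene in its probe set's brightness is uncertain. In the 9 arrays of the fusion constructs Tpsab1 ran between 6.48 and 11.65 and Mcpt4 between 4.65 and 7.86, so culture 3 lay above each of those arrays for both.

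GATA factors are known to act on mast cell genes, and Gata2 was itself highest in culture 3. The letters before the start site of 5 mast cell genes are shown for that reason. They were taken as the 5 of the list with the largest range over the MIG cultures that have a single entry in the RefSeq promoter table (build GRCm38.p6). Each run gives the 250 bases upstream of the annotated start, 5′ to 3′ on the gene's strand, with AGATAA and its reverse TTATCT in capitals. The runs lie at chr14:56062311-56062560 (minus strand) for Mcpt4, chr14:55944676-55944925 (minus strand) for Cma1, chr16:44943428-44943677 (plus strand) for Cd200r3, chr19:11623720-11623969 (minus strand) for Ms4a2 and chr1:173227230-173227479 (minus strand) for Fcer1a.
Mcpt4: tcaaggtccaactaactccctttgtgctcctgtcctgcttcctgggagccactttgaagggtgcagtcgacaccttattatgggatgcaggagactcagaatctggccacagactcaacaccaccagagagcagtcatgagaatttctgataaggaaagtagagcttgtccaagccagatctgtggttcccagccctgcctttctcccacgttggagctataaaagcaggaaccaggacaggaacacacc
Cma1: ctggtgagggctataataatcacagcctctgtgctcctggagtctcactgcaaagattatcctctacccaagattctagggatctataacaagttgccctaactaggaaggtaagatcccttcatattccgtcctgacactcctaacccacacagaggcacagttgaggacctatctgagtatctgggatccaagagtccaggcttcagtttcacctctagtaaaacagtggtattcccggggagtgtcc
Cd200r3: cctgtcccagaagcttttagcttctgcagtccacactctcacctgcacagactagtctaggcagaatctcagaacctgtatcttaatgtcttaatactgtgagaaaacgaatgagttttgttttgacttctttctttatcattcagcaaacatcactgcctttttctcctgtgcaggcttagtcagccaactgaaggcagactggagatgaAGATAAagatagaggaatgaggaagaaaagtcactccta
Ms4a2: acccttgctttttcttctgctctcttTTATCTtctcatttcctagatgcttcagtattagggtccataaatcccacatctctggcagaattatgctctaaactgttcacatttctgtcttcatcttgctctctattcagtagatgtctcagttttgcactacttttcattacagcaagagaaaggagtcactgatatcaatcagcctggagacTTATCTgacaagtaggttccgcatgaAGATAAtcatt
Fcer1a: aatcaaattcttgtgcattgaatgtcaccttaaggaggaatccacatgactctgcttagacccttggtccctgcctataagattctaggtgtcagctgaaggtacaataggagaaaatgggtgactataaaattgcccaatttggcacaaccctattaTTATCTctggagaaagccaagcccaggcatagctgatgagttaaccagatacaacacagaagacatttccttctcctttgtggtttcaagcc
Ms4a2 holds the motif at 3 places, the first bases lying 224, 37 and 11 bases before the start, Fcer1a at 1 place, 92 bases before it, and Cd200r3 at 1 place, 39 bases before it. Neither chymase holds AGATAA or TTATCT in this window. Related runs were not searched, such as the tgataa in the Mcpt4 run and the ctatct in the Cma1 run. Of the 16 genes of the list with an entry, 6 hold AGATAA or TTATCT (37.5%), and so do 3090 of the 27025 genes of the table (11.4%). A gene with several entries counts where any of them holds it. A match is a run of letters and not a measured binding site. Whether GATA factors have a part in the order of the cultures was not tested.

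Eosinophil genes were not in the high band, with 5 of 8 measured genes middling and 3 near the floor. Siglecf, a surface lectin of eosinophils, was brightest at 8.77, 8.40 and 8.23. The granule genes Epx, eosinophil peroxidase, (6.49, 6.09 and 7.70) and Prg2, major basic protein, (6.44, 6.89 and 7.84) were highest in culture 3, where they lay above all 9 arrays of the fusion constructs (5.45 to 6.51 for Epx and 5.89 to 6.53 for Prg2). The receptors Ccr3 (5.10, 5.33 and 6.14) and Il5ra (4.33, 4.31 and 4.45) were near the floor in the mean.

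Of 23 red cell genes none was high, 15 were middling and 8 near the floor, and 6 varied. The brightest were Tfrc, the transferrin receptor that all dividing cells use (11.01, 9.65 and 9.75), Blvrb (9.41, 9.81 and 10.11) and the carbonic anhydrase Car2 (9.09, 8.98 and 10.62). Genes of haemoglobin-making cells were dim, with Alas2, the enzyme of haem synthesis, at 5.80, 5.92 and 5.70 and Slc4a1, the anion exchanger of red cells, at 6.55, 6.50 and 6.41. Klf1, the erythroid transcription factor, was at 6.60, 6.31 and 7.18, and Gata1, which also acts in megakaryocytes and mast cells, at 7.72, 8.07 and 9.19. Rhag, a membrane protein of red cell precursors, had 7.83 in culture 3, against 4.65 and 4.97 in cultures 1 and 2 and 4.51 to 5.501 in the fusion arrays. Car1 was at 5.66, 6.40 and 8.07, and 16 of the 23 genes were highest in culture 3. Cldn13 (4.83, 4.51 and 5.09) and Trim10 (5.01, 4.92 and 5.25) were the lowest. The globin genes were not analysed here.

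**Figure D3:**
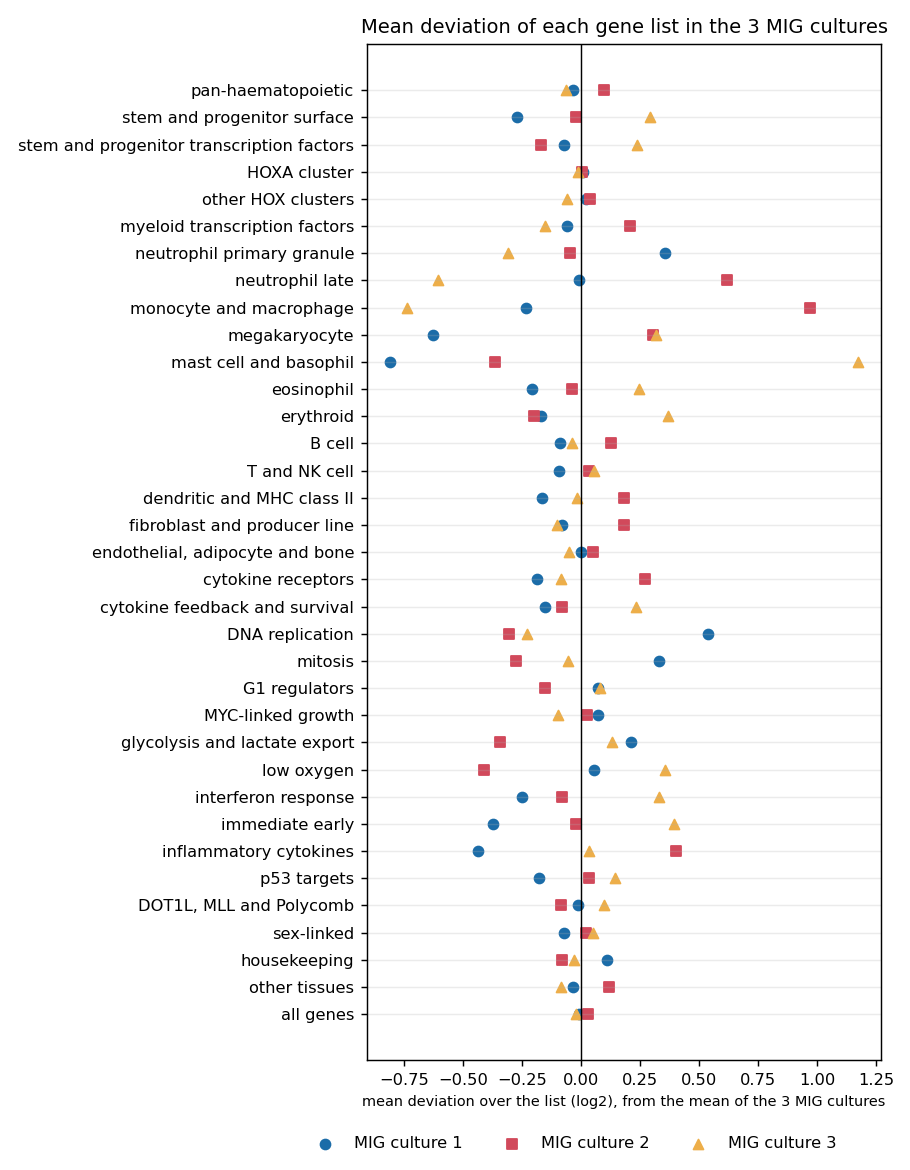
Mean over each gene list of the deviation of a culture from the mean of the 3 MIG cultures, on the log2 scale, with 1 point per culture and all genes in the bottom row. Culture 3 lies to the right for mast cell genes (1.17), culture 2 for monocyte (0.97) and late neutrophil genes (0.62) and culture 1 for DNA replication genes (0.54).

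Genes of lymphocytes were mostly near the floor. Of 21 B cell genes 16 were near the floor and 5 middling, with Pax5 (5.95, 6.02 and 5.85), Ebf1 (4.77, 4.77 and 4.83) and Cd79a (4.69, 4.40 and 4.88), which define the lineage, among the dim ones. Cd79b was the brightest at 8.76, 8.49 and 8.60. Il7r, the receptor for interleukin 7, had 8.02 in culture 2 and 6.02 and 6.73 in cultures 1 and 3, and Bank1 had 7.69 in culture 3 and 6.23 and 6.63 in cultures 1 and 2. Rag2 was lowest at 3.59, 3.65 and 3.60. Of 23 T and NK cell genes 17 were near the floor, with Cd3d at 4.83, 4.86 and 4.66 and Ncr1 at 4.33, 4.41 and 4.23, and Cd3e stood at 6.22, 6.24 and 5.92. The 2 high members were Gzmb, granzyme B (10.36, 10.86 and 12.36), and the adaptor Lat (9.78, 10.16 and 11.03), both of which mast cells are also known to make, and both were highest in culture 3.

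Of 18 dendritic cell and MHC class II genes 10 were middling and 8 near the floor. H2-DMa stood at 9.40, 9.34 and 9.65 and Tcf4, the factor of plasmacytoid dendritic cells, at 9.37, 9.27 and 9.28. The class II genes did not move together. Cd74, the invariant chain, was highest in culture 2 (8.41, 10.38 and 8.14), as was H2-Aa (5.54, 7.10 and 5.65), and H2-Ab1 was highest in culture 3 (7.68, 8.18 and 9.44). Clec9a (4.43, 4.93 and 4.53) and Ccr9 (4.68, 4.67 and 4.47), of dendritic cell subsets, were near the floor.

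Genes of fibroblasts, the cell type of the producer line and of marrow stroma, were read next. Of 27 such genes 1 was high, 14 were middling and 12 near the floor. Collagens were dim, with Col1a1 at 7.22, 7.45 and 7.10 and Col3a1 at 6.94, 7.03 and 6.75, values like those of the brightest genes of other tissues. Lum (3.92, 4.18 and 3.83) and Postn (4.54, 4.77 and 4.51) were lowest. The high member was Thy1 (11.26, 10.97 and 10.95), which blood progenitors of mice also carry, and Pdgfrb was at 9.30, 9.51 and 9.17. Fn1, fibronectin, which macrophages and megakaryocytes also make, had 10.50 in culture 2 and 8.46 and 9.07 in cultures 1 and 3. Culture 2 was highest for 20 of the 27, with a mean deviation of 0.18. For the genes of other tissues these were 19 of 26 and 0.12. The part of fibroblasts in the other differences of culture 2 was not tested. Of 16 genes of vessels, fat and bone, 12 were near the floor and none varied, and the brightest was the receptor Tie1 at 8.35, 8.16 and 8.22.

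Of 17 cytokine receptor genes 5 were high, 10 middling and 2 near the floor. Csf2rb and Csf2rb2, the shared signalling chains for interleukin 3 and its relatives, stood at 11.77, 12.05 and 12.38 and at 11.54, 11.93 and 12.55. Il4ra was at 10.73, 10.82 and 11.47. Il6st, the chain that interleukin 6 signals through, was at 8.70, 9.35 and 7.79, and Lifr was near the floor at 4.91, 5.41 and 5.03. Of 14 feedback and survival genes downstream of such receptors 7 were high and 7 middling. Pim1, a survival kinase, stood at 11.61, 11.86 and 12.25, Bcl2 at 11.00, 11.05 and 11.91 and Socs2 at 10.74, 10.83 and 10.89, and 1 gene varied, Socs1 (8.77, 8.95 and 10.04). Pim3 (8.78, 9.02 and 8.69) and Bcl2l1 (8.85, 8.88 and 8.87) were the lowest of them.

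Growth genes were bright and even. Of 18 MYC-linked genes 14 were high, 4 middling and none varied. Myc stood at 12.35, 12.35 and 12.43, the translation factor Eif4a1 at 12.95, 12.98 and 12.86 and the chaperonin Cct2 at 12.48, 12.36 and 12.35. The lowest were Cad, an enzyme of pyrimidine synthesis (9.86, 9.33 and 8.94), which also had the largest range, and Rrs1 of ribosome assembly (8.24, 8.25 and 7.79). Of 21 regulators of the G1 phase 7 were high and 14 middling. Cdk4 (12.53, 12.33 and 12.27), Cdk6 (12.11, 11.90 and 12.12) and Ccnd2 (12.02, 12.01 and 12.19) were the brightest, and Ccnd1 was low at 6.48, 6.73 and 6.45, as was Cdkn2b (6.51, 6.64 and 6.93). Rb1 varied most, with 10.27, 10.68 and 11.55, followed by E2f7 (9.22, 8.06 and 8.48).

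DNA replication genes were highest in culture 1 without exception. Of 27 measured, 10 were high and 17 middling, and each had its highest value in culture 1, with a mean deviation of 0.54 there against -0.31 and -0.23 in cultures 2 and 3. Pcna, the sliding clamp, stood at 12.43, 12.12 and 12.002, Rrm1, a subunit of ribonucleotide reductase, at 11.63, 10.81 and 11.04 and Mcm6 of the replicative helicase at 11.42, 10.88 and 10.85. The range was over 1 for 7 genes, among them Tk1, thymidine kinase (10.32, 8.64 and 8.53), the flap nuclease Fen1 (9.11, 8.02 and 7.40) and Orc1 of the origin complex (8.40, 7.13 and 7.29). For 10 of the 27 genes culture 1 lay above all 9 fusion arrays, as the highest MIG array did for 26.7% of all genes. Tk1 was among them, with 8.33 to 10.14 in the fusion arrays, and Fen1 was not, with 7.84 to 9.54 there.

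Mitosis genes followed culture 1 too. Of 26 measured, 13 were high and 13 middling, and 24 were highest in culture 1. Mki67, which codes for the Ki-67 antigen of dividing cells, stood at 11.77, 11.43 and 11.58, Ccnb2 at 12.18, 11.82 and 11.66 and Ccna2 at 11.94, 11.42 and 11.66. The widest were Birc5, survivin (9.27, 8.14 and 8.49), the kinases Ttk (8.80, 7.72 and 8.16) and Bub1 (11.08, 10.01 and 10.55).

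Sugar metabolism was bright. Of 16 genes of glycolysis and lactate export 12 were high and 4 middling, and culture 2 was lowest for 15 of them. Aldoa stood at 13.15, 12.95 and 13.29, Ldha, lactate dehydrogenase, at 13.15, 12.82 and 13.01 and Hk1 at 12.69, 12.64 and 12.87. Pfkl, a phosphofructokinase (10.76, 9.45 and 10.24), Slc2a3, a glucose transporter (11.38, 11.30 and 12.43), and Pdk1, which holds pyruvate out of the mitochondrion (9.99, 8.89 and 9.85), varied. Hk2 (9.68, 9.20 and 9.53) and Pfkm (8.55, 7.96 and 8.35) were the lowest.

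The 12 listed genes of the low-oxygen response, outside glycolysis, were 6 high, 5 middling and 1 near the floor. Hif1a, the oxygen-regulated transcription factor, stood at 11.45, 11.91 and 11.94, Egln3, a prolyl hydroxylase that marks it for destruction, at 11.95, 10.81 and 11.92 and Ndrg1 at 10.97, 11.03 and 11.55. Bnip3, a mitochondrial protein, was at 11.57, 10.12 and 11.46. Adm, adrenomedullin, was near the floor at 5.86, 5.52 and 6.07 and Car9, a carbonic anhydrase, was the next lowest at 7.54, 7.01 and 8.41. Culture 2 was lowest for 9 of the 12.

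The mean of each of the 12 was higher over the MIG arrays than over the fusion arrays, with a median difference of 0.65 log2, against 9462 of 19938 genes and a median of -0.01 over all genes. The lists were chosen with earlier results of these data known, so this count is a description and not a test. Other lists leaned the same way, with 17 of 18 megakaryocyte genes (median 0.60), 18 of 19 mast cell genes (median 0.60) and 14 of 16 glycolysis genes (median 0.35) higher in MIG on average. For 3 of the 12, Ankrd37, P4ha1 and Ndrg1, all 3 MIG arrays lay above all 9 fusion arrays, as they did for 0.607% of genes. In the limma fit across 23410 probe sets, Ankrd37 was the only one that passed at an adjusted p under 0.05 in the test of MIG against the mean of the 3 other constructs, and it was higher in MIG (1 called higher, 0.00427%; 0 called lower, 0%; 1608 had p under 0.05 before adjustment).

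**Figure D4:**
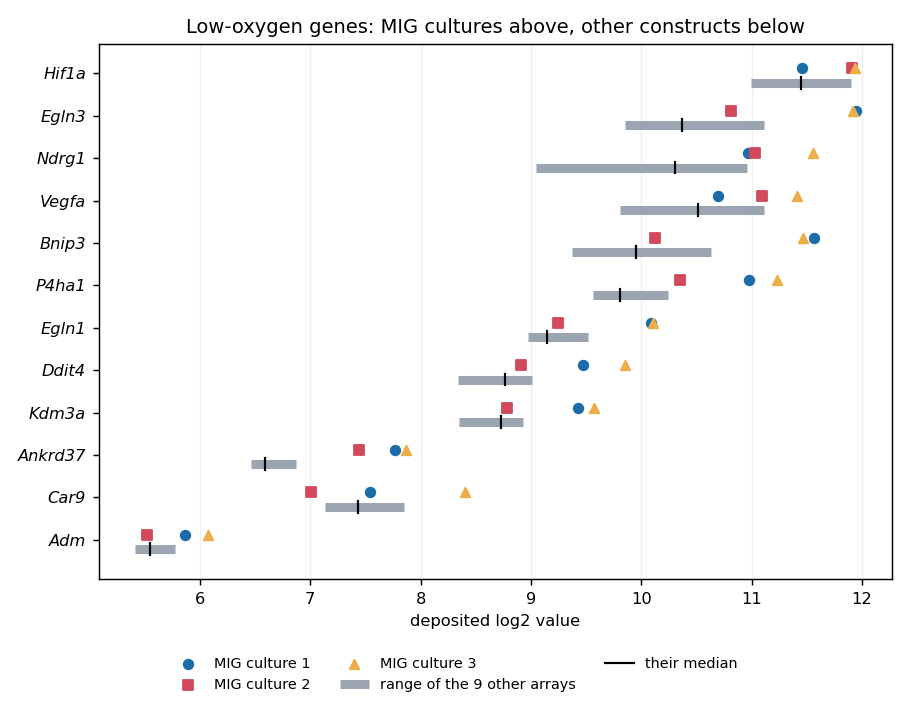
Deposited log2 values of the 12 low-oxygen genes in the 3 MIG cultures (upper symbols of each row) and the range of the 9 arrays of the other constructs (grey bar below, with its median). Ankrd37 shows no overlap, with MIG values of 7.44 to 7.86 against 6.47 to 6.87, and culture 2 is the lowest MIG culture for 9 genes.

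Ankrd37, an ankyrin repeat gene, stood at 7.77, 7.44 and 7.86 in MIG cultures, against 6.47 to 6.87 in the fusion arrays, a difference of 1.05 ± 0.11 log2 (SE, 3 against 9 arrays; limma with Benjamini-Hochberg adjustment, adjusted p = 0.0408). Over 16 alternatives its adjusted p ran between 0.0183 and 0.537, and 5 of them kept it past the threshold. It was 0.132 without MIG replicate 1 and 0.537 without MIG replicate 3. Among the next 9 genes by p were P4ha1, a collagen hydroxylase, at 10.98, 10.35 and 11.23 in MIG cultures against 9.56 to 10.24, and Nos2, the inducible nitric oxide synthase, at 7.26, 6.91 and 6.84 against 5.96 to 6.48. Both had an adjusted p of 0.251 by limma and did not pass. Lower in MIG, also without passing, were Hoxa9 (MIG mean 8.67 against 9.21, adjusted p = 0.251 by limma), Cd27, a co-stimulatory receptor of progenitors (8.06 against 9.13, adjusted p = 0.251), and Zscan25, a zinc finger gene (7.73 against 8.23, adjusted p = 0.0813).

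Among 19 immediate early genes, which answer within minutes to stimuli and to handling, all were middling and 8 varied, and 14 were highest in culture 3. Dusp1 stood at 9.40, 9.62 and 10.42, Klf6 at 9.16, 9.90 and 10.16 and Jun at 9.23, 9.22 and 10.07. Egr1 had 8.14, 9.22 and 10.49, and Fosb had 8.65 in culture 3 and 7.19 and 6.81 in cultures 1 and 2. Egr2 and Nr4a1 (7.15, 7.13 and 7.69) were the dimmest.

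Of 25 inflammatory genes 6 were high, 13 middling and 6 near the floor, and 11 varied. The chemokine Ccl3 stood at 12.18, 12.64 and 12.17, Ccl6 at 11.09, 12.12 and 11.39 and Ccl9 at 10.75, 11.15 and 11.04. Culture 2 was highest for 16 of the 25 and held the widest ranges, with Il1a at 5.04, 8.97 and 6.74 and the neutrophil attractant Cxcl2 at 6.42, 9.85 and 6.97. Ccl2, the monocyte attractant, differed in order, with 8.47, 9.18 and 11.64. Il3 (3.83, 4.13 and 3.89) and Il5 (4.38, 4.56 and 4.26), growth factors of myeloid cells, were near the floor.

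Interferon-responsive genes were middling for 17 of 22 and near the floor for 5. Ddx58, a sensor of viral RNA, stood at 9.32, 9.75 and 10.40, and Stat2, a signal carrier, at 8.78, 8.54 and 8.52. Usp18, a brake on the response, had 8.11, 8.66 and 10.33, and Rtp4 (6.44, 6.88 and 7.99) and Rsad2, viperin (5.83, 6.08 and 6.99), shared that order. The antiviral genes Mx1 (4.52, 4.49 and 4.53) and Mx2 (4.34, 4.43 and 4.75) were near the floor. Of 17 p53 targets 1 was high, Ccng1 (11.38, 11.71 and 11.59), 14 were middling and 2 near the floor, and 4 varied, among them Phlda3 (7.57, 7.52 and 8.84) and Fas (6.14, 7.40 and 6.17).

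Chromatin genes tied to the fusion partners were mostly even. Of 20 genes of the DOT1L, MLL and Polycomb complexes 6 were high, 13 middling and 1 near the floor. Aff4 of the elongation complex stood at 11.16, 11.49 and 11.84, the Polycomb methylase Ezh2 at 11.43, 11.14 and 11.26 and the kinase Cdk9 at 11.07, 11.19 and 10.82. The 2 that varied were Mllt3, a partner of DOT1L (8.51, 8.38 and 9.85), and Cbx8 of Polycomb (7.46, 6.40 and 7.44). Skida1 was near the floor at 4.87, 4.74 and 4.68. Ring1 of Polycomb, at 7.83, 7.79 and 7.82 in MIG cultures against 7.95 to 8.10 in the fusion arrays, was the 1 listed chromatin gene with all 3 MIG arrays below all 9 others, as held for 0.772% of genes. The 3 cultures were alike in sex-linked genes, with Xist, the RNA of the inactive X chromosome, near the floor at 4.82, 4.60 and 4.65 and the Y-linked Eif2s3y at 9.94, 10.11 and 10.15.

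Over all genes, the larger ranges were mostly those of culture 3. Among the 1000 varying genes the culture farthest from the other two was culture 3 on the high side for 418 (41.8%), against 13.7% of all genes, and culture 2 on the high side for 212 (21.2%), against 27.6% of all genes. Most varying genes were middling (809), with 98 high and 93 near the floor. The range reached 2 log2 for 177 genes and 3 log2 for 41. The highest MIG array lay above all 9 fusion arrays for 599 of the 1000 varying genes and for 26.7% of all genes, and the lowest lay below them for 203 and for 27.9% of all genes. A gene that varies is more open to both by its range alone, so these shares are a description.

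**Figure D5:**
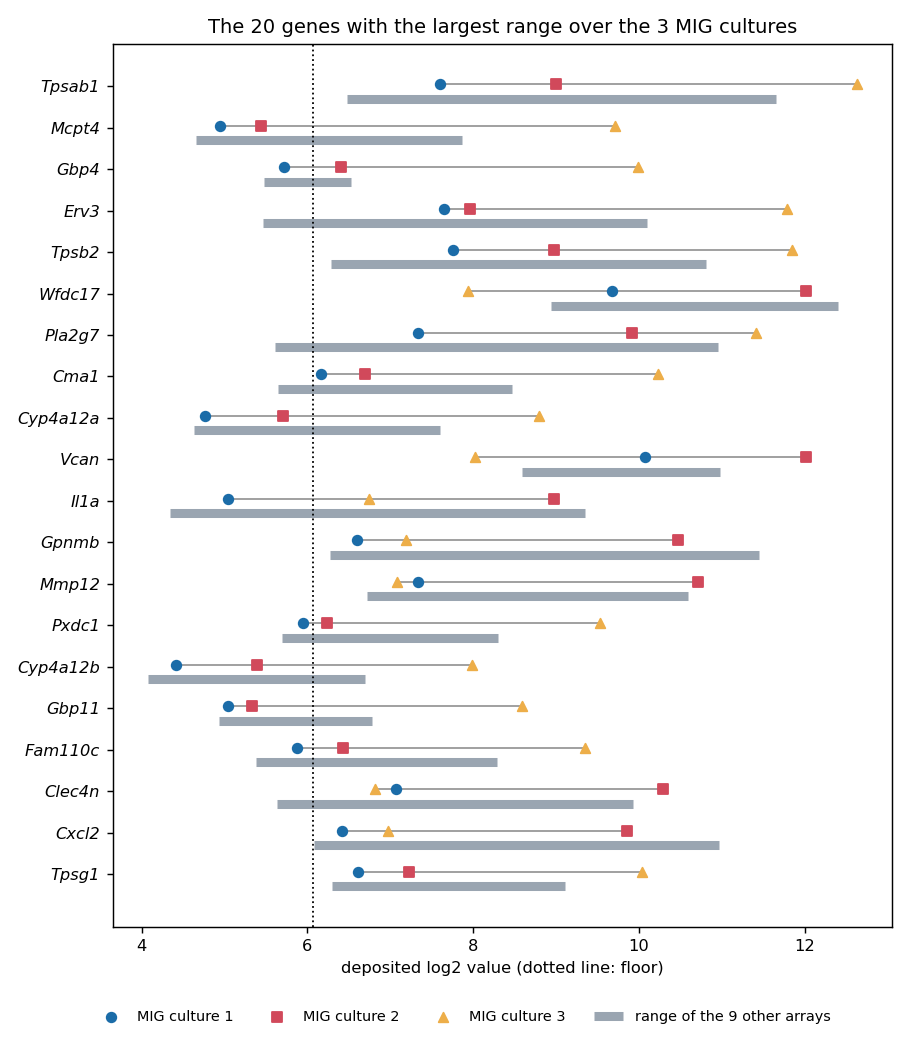
Deposited log2 values of the 20 genes with the largest range over the 3 MIG cultures, with the range of the 9 arrays of the other constructs as a grey bar under each row and the floor as a dotted line. Culture 3 is highest for 13 genes and culture 2 for 7, and culture 1 is lowest for 16.

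Of the 20 genes with the largest ranges, culture 3 was highest for 13 and culture 2 for 7. Beside the mast cell proteases Tpsab1, Mcpt4, Tpsb2, Cma1 and Tpsg1 (6.61, 7.23 and 10.03), the genes highest in culture 3 included 2 GTPases of the interferon-induced guanylate-binding family, Gbp4 (5.71, 6.41 and 9.98) and Gbp11 (5.04, 5.33 and 8.59), and the lipase Pla2g7 (7.34, 9.92 and 11.42). They also included Erv3 (7.65, 7.97 and 11.79) and 2 cytochrome P450 genes, Cyp4a12a (4.77, 5.71 and 8.79) and Cyp4a12b (4.41, 5.39 and 7.98), which are near-copies. Those highest in culture 2 included Vcan, versican (10.08, 12.01 and 8.02), Wfdc17 (9.67, 12.02 and 7.94), Mmp12, macrophage elastase (7.33, 10.71 and 7.08), and the lectin Clec4n (7.07, 10.29 and 6.82). For 16 of the 20 the highest MIG array lay above all 9 fusion arrays.

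An F test in limma asked whether the MIG cultures differed from each other by more than replicate cultures of the other constructs did. The spread was taken from the 9 fusion arrays, which the fit treats as independent. Some same-numbered fusion arrays correlated more closely than replicates of the same construct, as given below. The p-values and the expected count rest on that independence. Of 23410 probe sets 1 passed at an adjusted p under 0.05 (0.00427%), and 1171 had p under 0.05 before adjustment, where 1170.5 would be expected with no difference. It was Fbxl21, an F-box gene, at 5.94, 5.94 and 7.82 in the MIG cultures, against 5.56 to 5.94 in the fusion arrays (limma F test, Benjamini-Hochberg adjusted p = 0.0237). It rests on culture 3, and without MIG replicate 3 its adjusted p was 0.9996. Next came Phlda1, a growth-factor-induced gene (6.36, 6.31 and 8.99, adjusted p = 0.0521 by limma). Then, at 0.0547, came A4galt (5.76, 5.96 and 7.93), Stk32a (5.61, 6.28 and 8.48) and Nrbp2 (7.35, 6.55 and 8.25). Also at 0.0547 were the carbonic anhydrase Car4 (5.82, 8.35 and 6.34), Mgarp, a mitochondrial protein (6.41, 5.07 and 6.84), and Vcan. None of these passed.

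No gene of the 34 lists passed this F test in limma. Of the 614 listed genes measured, 65 had p under 0.05 before adjustment, against 1028 of all 19938 genes. Of the same 614, 143 varied, against 1000 of all genes. The lists were chosen with earlier results of these data known, so these counts are descriptions. Repeated with each fusion construct in the place of MIG, the test called 0 probe sets for CALM-AF10 (0%), 1 for CALM-AF10 ΔOM-LZ (0.00427%) and 0 for the minimal fusion (0%), with 366, 1145 and 597 at p under 0.05 before adjustment. The median SD of a probe set was 0.153 in MIG, 0.155 in CALM-AF10, 0.181 in CALM-AF10 ΔOM-LZ and 0.160 in the minimal fusion cultures. The orders of culture described for mast cell, monocyte and replication genes are therefore descriptions of these 3 arrays.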

How the data were processed

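RNA from 3 MIG cultures and 9 cultures of 3 other constructs was measured on Affymetrix whole-transcript arrays. The authors deposited log2 values for 35556 probe sets, and per the submitters' processing notes the tool was Affymetrix Expression Console; its version and its normalization method: not given in the sources used here. Array medians ran between 6.58 and 6.69. No read depth applies, and the number of arrays limits the precision. A platform table gave 23410 probe sets a symbol, 21789 of them a single one. Of 690 list entries 626 were measured, 19 lay only on probe sets with several symbols and 45 were not analysed here. Genes for naming were picked by rule: in each list the 3 highest and 2 lowest MIG means and the 3 largest ranges. With them came set markers, the 20 highest means, the 20 largest ranges and the 10 smallest p of each test. Some genes so picked are not named, such as Baiap2l1 and Rn7sk of the highest means and Psmg4 of the smallest p. Beyond the rule, Cd200r3, Ring1, Prom1, Cxcr2 and some cell type markers were named after their values were seen. The members and lists were chosen with earlier results of these data known.

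Fits used limma 3.58.1 in R 4.3.3, with moderated tests and Benjamini-Hochberg adjustment over all probe sets with a symbol. They were tried on simulated data with noise independent between arrays. The F test found 55 of 100 probe sets shifted by 1.5 log2 in 1 MIG array and 92 of 100 shifted by 3. For MIG against the other constructs these were 97 and 100. Python 3.11.15 with pandas 2.3.3 made the counts. The F test gave each MIG array its own mean and left 6 residual degrees of freedom; MIG against the mean of the other constructs left 8. The labels call the arrays biological replicates without saying whether they came from separate animals, so p-values measure the spread between these samples. Both tests treat the arrays as independent, and whether arrays shared a preparation was not tested. Alternatives changed the floor, the high line, the probe set rule, the scaling, the variance model, the filter on dim probe sets, the arrays kept and the replicate block.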

Additional observations from a re-analysis of the deposited data

How the results depend on the processing

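With the floor taken from 163 vomeronasal receptor genes, 3991 genes were near it, and with the floor at the median of the olfactory receptor genes, 2255. With the line for high genes a decile lower there were 3988 high genes. Leaving out a MIG culture gave between 337 and 623 varying genes, by construction fewer than with all 3. The F test of spread called 5 probe sets after quantile normalization, 3 after median centring, 9 with a trended robust variance, 0 among probe sets above the floor and between 0 and 6 with a MIG culture left out. It called 0 without MIG replicate 3.

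MIG against the other constructs called between 0 and 9 probe sets with an array left out, of MIG or of another construct, and 9 without MIG replicate 2. Against CALM-AF10 alone and against CALM-AF10 ΔOM-LZ alone it called 0, and against the minimal fusion alone 8. With the replicate block it called 0. Deviations of MIG arrays from their mean had correlations of -0.60 to 0.15 with those of same-numbered fusion arrays. No pairing of MIG with the fusions by replicate number was thus seen. Among the fusion arrays, some same-numbered ones were closer than replicates of the same construct. CALM-AF10 replicate 1 had 0.995 with minimal fusion replicate 1 and 0.982 with CALM-AF10 replicate 2. Minimal fusion replicate 3 differed, with 0.984 to CALM-AF10 replicate 3 and 0.9945 to CALM-AF10 replicate 2. Whether arrays shared a preparation was not tested. Why the counts of called probe sets moved was not tested. With the other alternatives, the counts near the floor ran between 6970 and 7516 and those varying between 907 and 1008. Quantile normalization, median centring, the trended variance and the filter kept 1 called probe set of MIG against the others. Of 26 listed genes with several probe sets, 9 had them in different bands.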
